A study of Sus scrofa with 6 samples.

Results

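GDF9 and BMP15, the growth factors that the oocyte secretes to the somatic cells around it, were followed in pig oocytes before and after maturation in culture. Each was represented by 1 probe, chosen because the platform annotation gives that probe the single gene symbol GDF9 (probe 15266700, Entrez gene 414285) or BMP15 (probe 15333874, Entrez gene 448811). They are 2 of the 12258 probes on each array, and 2 of the 10864 genes named by the 10922 probes with 1 symbol. The material was 300 oocytes of grade I from pubertal crossbred Landrace gilts, in 6 pools of 50. In 3 pools the RNA was taken before culture (0 h). In the other 3 it was taken after cumulus-oocyte complexes, meaning oocytes still enclosed in their cumulus cells, had been kept for 44 h at 38 °C under 5% CO2 in TCM-199 medium with 10% porcine follicular fluid, hCG and eCG. Titles call the uncultured pools in vivo oocytes, and descriptions place them before maturation. Both groups came from abattoir ovaries, and neither carried a genetic change. The groups differ in time, medium, hormones and meiotic stage at once, so the parts of these in a difference cannot be told apart. A dye test for sorting oocytes is named in the study's design and is not assigned to single samples, so it was not used here.

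GDF9 and BMP15 belong to the TGF-beta family. They are made as precursors, cleaved by proprotein convertases, and act as dimers, alone or with each other, on receptors of granulosa and cumulus cells. BMPR2 is the type II receptor for both, while GDF9 signals through TGFBR1 (ALK5) to SMAD2 and SMAD3, and BMP15 through BMPR1B (ALK6) to SMAD1, SMAD5 and SMAD9. In the ovary these factors are known for supporting follicle growth and for switching on the genes of the cumulus matrix when the cumulus expands. Oocytes store much of their mRNA, and transcription is low once meiosis resumes.

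The values are log2 expression levels deposited by the authors. Array medians lay between 5.62 and 5.70, and lower quartiles between 4.27 and 4.45. Replicates of a group correlated at 0.989 to 0.995 over all probes and differed by a median of 0.125 to 0.168. Of the 40 genes listed as oocyte genes 28 were measured, and their summed level was 15.67 to 15.75 on the log2 scale before culture and 15.68 to 15.70 after it. Of 12258 probes, limma called 394 higher (3.21%) and 989 lower (8.07%) after culture (Benjamini-Hochberg adjusted p under 0.05, the threshold used throughout), together 11.3%. "Rose" and "fell" are used for genes called in this way. For such genes a lack of overlap between the groups describes the values and is no further support for the call. Precision is limited by having 3 arrays a group, and the smallest two-sided p of an exact permutation test at that size is 0.10.

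GDF9 transcript was high in all 6 pools and differed little between the groups. Its log2 level was 10.98, 11.00 and 11.04 in the 3 pools before culture and 11.03, 11.06 and 11.10 in the 3 pools after it. The groups overlapped, since the highest pool before culture lay above the lowest pool after it. The mean was 11.01 ± 0.03 (SD, n = 3) before and 11.06 ± 0.04 (SD, n = 3) after. The difference of 0.06 ± 0.08 (SE), a 1.04-fold change with a 95% interval of 0.910 to 1.19, did not pass the test (limma, adjusted p = 0.681, unadjusted p = 0.525, exact permutation p = 0.2).

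BMP15 transcript was also high in all pools, with a somewhat larger difference that did not pass the test. Its log2 level was 12.10, 12.09 and 12.03 before culture and 12.18, 12.20 and 12.19 after it. Here the groups did not overlap, as was the case in the same direction for 21.7% of all probes. The mean was 12.07 ± 0.04 (SD, n = 3) before and 12.19 ± 0.01 (SD, n = 3) after. The difference of 0.11 ± 0.08 (SE) is a 1.08-fold change with a 95% interval of 0.948 to 1.23 (limma, adjusted p = 0.395, unadjusted p = 0.212, exact permutation p = 0.1, the smallest this design allows). Each growth factor was higher after culture in 3 of 3 pairs of pools with the same replicate number. For BMP15 that follows from the lack of overlap, and the share of all probes with such a count is not given here.

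**Figure D1:**
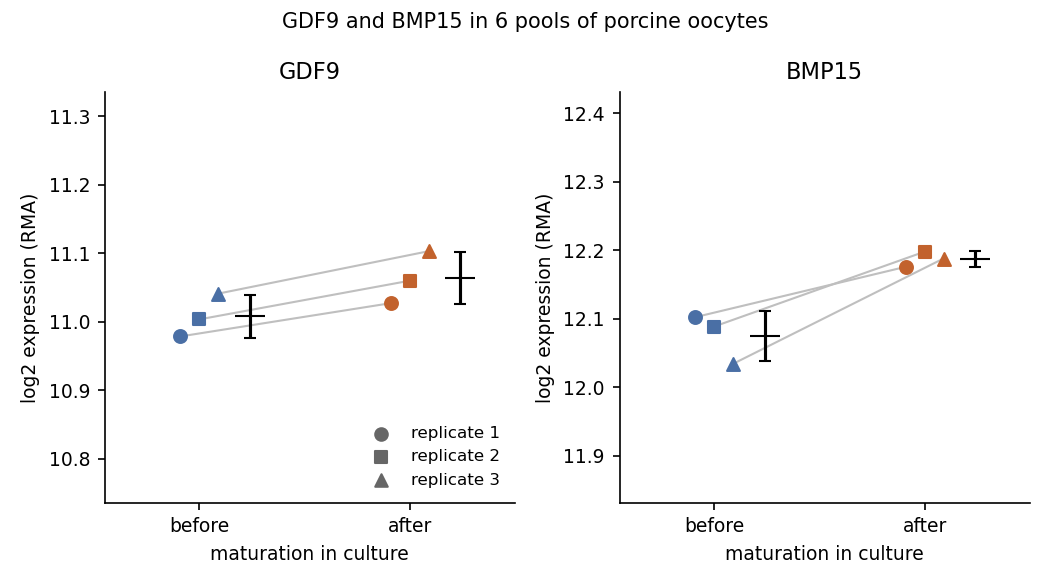
Log2 expression level of GDF9 and BMP15 in each of the 6 pools, before and after culture, with the mean and SD (n = 3) of each group and lines joining pools of the same replicate number. The GDF9 groups overlap (10.98 to 11.04 before, 11.03 to 11.10 after), while the 3 BMP15 values after culture (12.18 to 12.20) lie above the 3 before it (12.03 to 12.10).

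The GDF9 difference was small against the rest of the array, and the BMP15 difference was near the middle of those of the brightest 5% of probes. The median difference of all probes was 0.08, and from the 5th to the 95th percentile probes ranged from -0.76 to 0.41. In all, 17.1% of probes had a smaller absolute difference than GDF9, and 34.1% a smaller one than BMP15. Among the 613 probes of the brightest 5% these shares were 25% and 47.8%. The pools of a group also agreed closely on both genes: the SD pooled over the groups was 0.0349 for GDF9 and 0.0267 for BMP15, against a median of 0.143 for all probes and 0.0997 for the brightest 5%. A smaller SD was found for 1.32% of probes in the case of GDF9 and for 0.465% in the case of BMP15.

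The moderated test draws each probe's spread toward that of all probes, which made the standard error 2.94 times the gene's own for GDF9 and 3.81 times for BMP15. With each probe's own spread, an alternative chosen after the data were seen, the 95% interval was -0.02 to 0.13 for GDF9 and 0.05 to 0.17 for BMP15. The unadjusted p was then 0.123 for GDF9 and 0.00673 for BMP15, and neither gene passed after adjustment over all probes (adjusted p = 0.309 and 0.102).

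The sizes depended on how the arrays were scaled to each other. With each array brought to a common median the differences were 0.11 for GDF9 and 0.17 for BMP15, and after a second quantile normalization 0.04 for both. Cyclic loess, which levels the arrays along the range of brightness, gave -0.02 for GDF9 and 0.02 for BMP15. With the 28 other oocyte genes held level the differences were 0.01 and 0.07. None of these passed the test (limma adjusted p = 0.172 to 0.912 for the common median, second quantile and cyclic loess scalings, and 0.941 and 0.656 when oocyte genes were level). A last scaling, ribosomal scaling in what follows, instead held the 44 probes of ribosomal protein genes level. Under it GDF9 was higher by 0.51 (95% interval 0.20 to 0.83, limma adjusted p = 0.00438) and BMP15 by 0.57 (0.25 to 0.89, adjusted p = 0.00253). That scaling called 77.2% of all probes higher, a share to set beside its counts in the lists that follow. It moved the median probe difference from 0.08 to 0.54, beside the 0.51 and 0.57 of the growth factors.

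**Figure D2:**
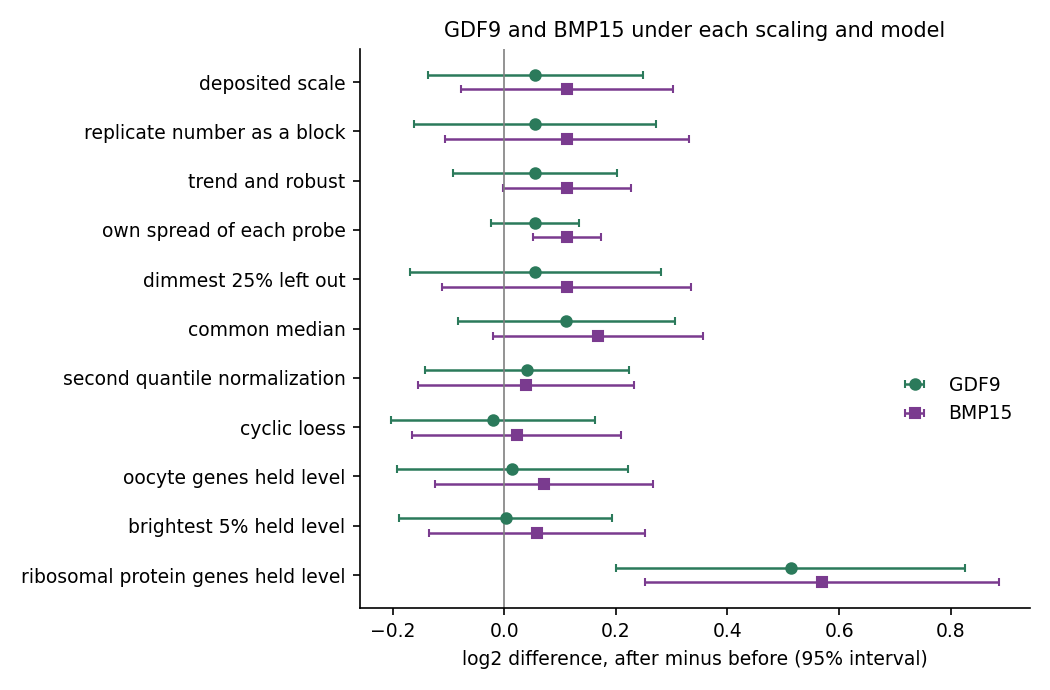
Log2 difference after minus before culture of GDF9 (circles) and BMP15 (squares) with its 95% interval (bars), for the deposited scale and each other model or scaling of the 6 arrays. Differences lie between -0.02 and 0.17 except with ribosomal protein genes held level, where they are 0.51 and 0.57.

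A log ratio of BMP15 to GDF9 within each array does not depend on any shift common to the array. Centred on its mean over the 6 arrays, it was 0.03, -0.01 and -0.10 before culture and 0.05, 0.04 and -0.01 after it, so the groups overlapped. The ratio was higher after culture by 0.06 on the log2 scale (exact permutation test, two-sided p = 0.3) and was higher in 3 of 3 same-numbered pairs. After a second quantile normalization the change was -0.00152 (exact permutation p = 1).

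Both probes were near the top of the range. GDF9 lay at percentiles 98.9 to 99.1 of its array, with 104 to 134 probes above it, and BMP15 above percentile 99.9, with 4 to 8 probes above it. BMP15 lay 0.409, 0.443 and 0.534 below the brightest probe of its array before culture and 0.475, 0.451 and 0.411 below it after. The array maximum, which need not be the same probe in each array, was on average higher by 0.10 after culture, from 12.54 to 12.63. Whether such bright probes were near saturation was not tested, and near saturation a change would be understated.

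Markers of the somatic cells that enclose the oocyte were mostly lower after culture. Of 15 measured cumulus and granulosa cell markers 8 fell and 1 rose (7 lower and 5 higher under ribosomal scaling), with a median difference of -0.69 against 0.08 for all probes. Among all probes 8.07% fell and 3.21% rose. The summed log2 level of the markers was 12.60 to 13.00 before culture and 11.07 to 11.24 after it. HSD17B1, the granulosa enzyme that reduces estrone to estradiol, fell by 4.41 (limma adjusted p = 2.12e-05), and SERPINE2, a granulosa protease inhibitor, fell by 2.92 (adjusted p = 8.94e-06). GJA1, the connexin of cumulus cell gap junctions, fell by 2.27 (adjusted p = 2.45e-05). HSD3B1, a steroid dehydrogenase of progesterone synthesis, rose by 3.95 (adjusted p = 1.49e-05). In pooled samples, fewer somatic cells and less RNA per cell cannot be told apart. The part of these cells in the results on receptors, SMADs, convertases, antagonists and target genes that follow was not tested.

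Markers of other follicle and blood cells were mostly not called on the deposited scale, where 11.3% of all probes were called in either direction. Among theca and stromal genes, of which 10 were measured, 2 rose and 1 fell, and the summed log2 level was 8.49 to 8.73 before and 8.43 to 8.51 after. POSTN, a matrix protein, rose 2.29-fold (limma adjusted p = 0.025), and COL3A1, a fibrillar collagen, rose by 0.37 on the log2 scale (adjusted p = 0.0493). Neither call was kept when pool 2 or 3 before culture or pool 1 after it was left out. Both probes are among the dimmest 25%, and the replicate block gave 3 rises. The COL3A1 call also ended after second quantile normalization or cyclic loess, and with oocyte genes or the brightest 5% held level. In the same list ACTA2, smooth muscle actin, fell by 1.93 (limma adjusted p = 0.000585). None of 6 endothelial markers passed limma's adjusted test (2 higher at an unadjusted p under 0.05, and 1 called higher with each probe's own spread and 1 with the replicate block), and 1 of 6 leukocyte markers, CD3E, rose by 0.48 (adjusted p = 0.0418, a call lost without any 1 pool other than pool 2 before culture; the block gave 2 higher). The CD3E call also ended after cyclic loess, with the brightest 5% held level and with each probe's own spread. Ribosomal scaling made all 6 endothelial, all 6 leukocyte and 8 of 10 theca and stromal markers higher, beside 77.2% of all probes. The summed level was 8.43 to 8.51 before and 8.45 to 8.73 after for endothelial markers. For leukocyte markers it was 7.35 to 7.59 before and 7.68 to 7.84 after. No value on this scale is 0. The marker lists also hold genes with no matched probe, among them FSHR and FOXL2 of the cumulus and granulosa list.

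Of the 3 receptors through which GDF9 and BMP15 signal, 1 rose, 1 fell and 1 did not pass. BMPR1B, the type I receptor of BMP15, was at 10.23, 10.12 and 10.09 before culture and at 10.90, 10.71 and 10.73 after it, with no overlap. It rose by 0.63 ± 0.10 (SE), or 1.55-fold (limma adjusted p = 0.00471). TGFBR1, the type I receptor of GDF9, was at 7.79, 7.64 and 8.41 before and at 6.83, 7.04 and 7.24 after, again with no overlap. It fell by 0.91 ± 0.20 (adjusted p = 0.0247), and without pool 1 or pool 2 after culture the adjusted p was 0.103 or 0.0887. BMPR2, the shared type II receptor, was at 9.97, 9.65 and 10.06 before and at 10.01, 10.11 and 10.02 after. These groups overlapped, and the difference of 0.16 did not pass (adjusted p = 0.412). Under ribosomal scaling BMPR2 was also called higher (0.62, adjusted p = 0.00235), while BMPR1B stayed higher (1.09) and TGFBR1 lower (-0.45). With each probe's own spread neither call was kept (adjusted p = 0.0528 for BMPR1B and 0.166 for TGFBR1).

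Of 11 other receptors of the family 1 rose, 1 fell and 9 did not pass, with a median difference of -0.01. The share called in either direction over all probes was 11.3%. TGFBR3, betaglycan, a co-receptor of TGF-beta and inhibin, fell by 2.35 (limma adjusted p = 0.000107). ACVR2B, an activin type II receptor, rose by 0.45 (adjusted p = 0.0456). That call ended with the replicate number as a block (adjusted p = 0.0503) and without any 1 pool other than pool 1 before culture. It also ended with oocyte genes or the brightest 5% held level, with trend and robust estimation and with each probe's own spread. The block gave 2 receptors of this list higher, ACVRL1 and TGFBR2, and 1 lower. Ribosomal scaling made 7 of the 11 higher and 1 lower, beside 77.2% of all probes higher.

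Of 7 measured SMADs, the proteins that carry the signal to the nucleus, 3 fell and none rose in limma's adjusted test. At an unadjusted p under 0.05, 4 were lower and 0 higher. The shares of all probes called by the adjusted test were 8.07% lower and 3.21% higher. SMAD4, the partner common to both branches, was at 9.81, 9.63 and 9.95 before culture and at 8.17, 8.28 and 8.61 after it. It fell by 1.44 ± 0.14 (SE), or 2.72-fold (adjusted p = 0.00045). SMAD2, of the GDF9 branch, was at 10.40, 10.52 and 10.91 before and at 9.65, 9.86 and 9.91 after, and fell by 0.80 ± 0.15 (adjusted p = 0.0105, and 0.0556 without pool 1 after culture). Neither gene's groups overlapped. SMAD3, the other SMAD of the GDF9 branch, was not among the 7 measured.

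SMAD6, an inhibitory SMAD of the BMP branch, fell by 0.75 (limma adjusted p = 0.00772). The BMP15 branch showed SMAD1 at a difference of 0.14 (adjusted p = 0.472), SMAD5 at 0.14 (0.332) and SMAD9 at -0.21 (0.158). SMAD7, the other inhibitory SMAD, differed by 0.22 (adjusted p = 0.18) and was under the lower quartile of all probes in both groups. Under ribosomal scaling SMAD1, SMAD5 and SMAD7 were called higher, SMAD2 and SMAD4 stayed lower, SMAD6 did not pass (adjusted p = 0.118) and SMAD9 turned to 0.25. With each probe's own spread none of the 7 passed (adjusted p = 0.0514 for SMAD4).

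**Figure D3:**
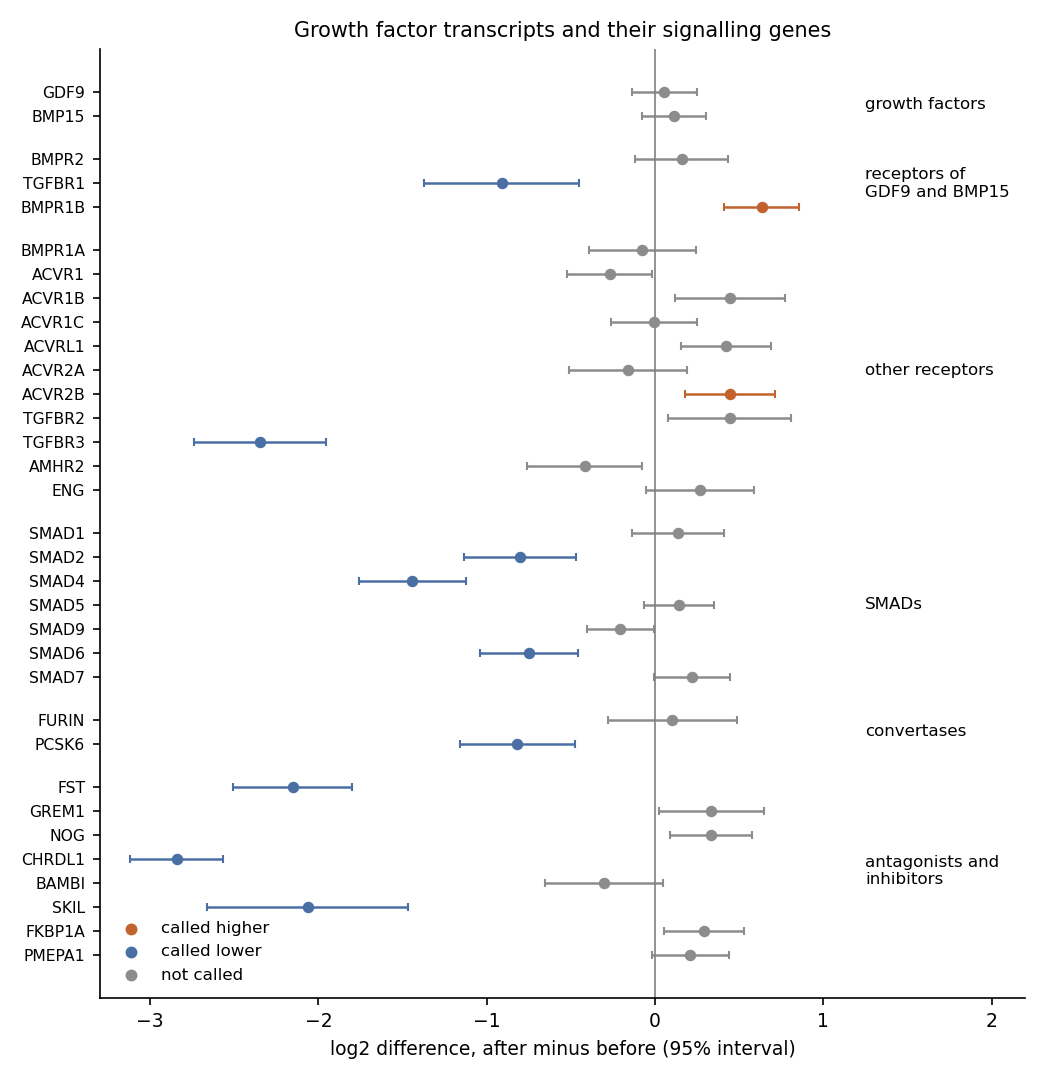
Log2 difference after minus before culture, with its 95% interval (bars), for GDF9, BMP15, their receptors, the other receptors of the family, the SMADs, convertases and antagonists, coloured by limma call at an adjusted p under 0.05. GDF9 (0.06) and BMP15 (0.11) lie near 0, BMPR1B lies at 0.63, TGFBR1 at -0.91 and SMAD4 at -1.44.

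Of 4 listed convertases, the proteases that cleave such precursors, 2 were measured. FURIN was at 10.23, 9.90 and 9.61 before culture and at 10.23, 9.88 and 9.94 after it, and the difference of 0.10 did not pass (limma adjusted p = 0.709). Under ribosomal scaling FURIN was called higher (0.56, adjusted p = 0.00777), and PCSK6 stayed lower. PCSK6 (PACE4) was at 6.64, 6.31 and 6.66 before and at 5.68, 5.50 and 5.98 after, with no overlap. It fell by 0.82 ± 0.15 (SE) (adjusted p = 0.0111, and 0.0572 without pool 1 after culture).

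Of 8 measured antagonists and modulators of the family 3 fell and none rose in limma's adjusted test, beside 8.07% of all probes lower and 3.21% higher. At an unadjusted p under 0.05, 3 were lower and 3 higher, and the median difference was -0.05. CHRDL1, a secreted BMP antagonist, fell by 2.84 (7.18-fold, adjusted p = 8.47e-06). FST, follistatin, which binds activins and some BMPs, fell by 2.15 (4.45-fold, adjusted p = 9.57e-05). SKIL, a nuclear repressor of SMAD targets, fell by 2.06 (adjusted p = 0.00177). FST is also 1 of the 15 cumulus and granulosa markers. Under ribosomal scaling these 3 stayed lower and 4 others of the list were called higher.

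Among 21 other measured ligands of the family 1 rose, 2 fell and 18 did not pass, with a median difference of 0.18. Calls in either direction made up 11.3% of all probes. With the replicate number as a block 4 were called higher, among them BMP2, BMP8B and GDF11, and 2 lower. INHBA, the inhibin and activin beta A subunit, was at 10.18, 10.17 and 10.49 before culture and at 8.37, 8.24 and 8.07 after it. It fell by 2.05 ± 0.12 (SE), or 4.14-fold (limma adjusted p = 3.51e-05). AMH, anti-Müllerian hormone of granulosa cells, fell by 0.69 (adjusted p = 0.0102), a call that ended under ribosomal scaling and without pool 1 after culture. Both are also in the cumulus and granulosa list. GDF1 rose by 0.46 (adjusted p = 0.0184), and this call ended when any 1 pool after culture was left out. Under ribosomal scaling 19 of the 21 were called higher, beside 77.2% of all probes, and INHBA stayed lower.

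Genes listed as under the control of these factors in cumulus cells went both ways. Of 17 measured targets 4 rose, 6 fell and 7 did not pass, beside 3.21% of all probes that rose and 8.07% that fell. The targets had a median difference of -0.03, and 6 of the 17 are also cumulus and granulosa markers. Ribosomal scaling gave 10 higher and 4 lower, beside 77.2% of all probes higher. HAS2, which makes the hyaluronan of the expanded cumulus, was at 4.11, 3.75 and 3.66 before culture and at 5.42, 6.07 and 5.19 after it. It rose by 1.72 ± 0.22 (SE) (limma adjusted p = 0.00198). CD44, a hyaluronan receptor, rose by 1.21 (adjusted p = 0.000548), and PTGS2, a prostaglandin synthase, by 1.11 (adjusted p = 0.000752). PTX3, which cross-links the matrix, rose by 0.67 (adjusted p = 0.0371), a call that ended without any 1 pool other than pool 3 after culture, and under 3 scalings (second quantile, cyclic loess and brightest 5% level). HAS2, PTGS2 and PTX3 were under the lower quartile of all probes before culture (4.27 to 4.45).

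Other targets fell. ID2, a helix-loop-helix inhibitor induced by BMP signals, was at 10.55, 10.12 and 10.52 before culture and at 6.40, 6.67 and 6.15 after it. It fell by 3.99 ± 0.16 (SE), or 15.9-fold (limma adjusted p = 7.06e-06). ID1, of the same family, fell by 1.58 (adjusted p = 0.0017). VCAN, the matrix proteoglycan versican, fell by 0.59 (adjusted p = 0.0278), a call that ended under ribosomal scaling and without any 1 pool after culture.

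The transcription factors of the oocyte were mostly not called, beside 11.3% of all probes called in either direction. Of 7 measured 1 rose and 6 did not pass, with a median difference of 0.21 and a range of 0.02 to 0.35. Under ribosomal scaling all 7 were higher, as were 77.2% of all probes. NR6A1 (germ cell nuclear factor), known in mouse oocytes as a repressor of Gdf9 and Bmp15, was at 8.67, 8.61 and 8.62 before culture and at 8.96, 9.02 and 8.97 after it. It rose by 0.35 ± 0.08 (SE), or 1.28-fold (limma adjusted p = 0.0322), with no overlap. That call ended when any 1 of the 6 pools was left out (adjusted p = 0.052 to 0.101), and with oocyte genes or the brightest 5% held level. NOBOX, an activator of both growth factor genes, was at 9.53, 9.19 and 8.89 before and at 9.56, 9.28 and 9.45 after, a difference of 0.22 that did not pass (adjusted p = 0.385). FIGLA, an activator of the zona pellucida genes, differed by 0.16 (adjusted p = 0.339), SOHLH1 by 0.21 (0.136), POU5F1 by 0.31 (0.307), LHX8 by 0.05 (0.754) and TAF4B by 0.02 (0.897). With each probe's own spread SOHLH1 passed (adjusted p = 0.0477).

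Among the 28 measured oocyte genes 3 fell, none rose and 25 did not pass limma's adjusted test (3 lower and 4 higher at an unadjusted p under 0.05). Over all probes 8.07% fell and 3.21% rose. Ribosomal scaling gave 21 oocyte genes higher and 1 lower, beside 77.2% of all probes higher, and the replicate block gave 1 higher and 3 lower. The median difference of the oocyte genes was 0.06, next to 0.06 for GDF9 and 0.11 for BMP15. KIT, the receptor of KIT ligand on the oocyte, was at 9.84, 9.62 and 10.17 before culture and at 8.72, 8.62 and 8.65 after it, and fell by 1.22 ± 0.14 (SE) (adjusted p = 0.0011). ZP3, a zona pellucida glycoprotein, was at 11.70, 11.44 and 11.34 before and at 10.95, 10.78 and 10.66 after, and fell by 0.70 ± 0.13 (adjusted p = 0.0104). ZP4, of the same coat, was at 12.12, 12.02 and 12.10 before and at 11.78, 11.71 and 11.54 after, and fell by 0.40 ± 0.10 (adjusted p = 0.0343). In none of the 3 did the groups overlap, and the share of all probes separated downward is not given here. The ZP3 call ended under ribosomal scaling. ZP4 turned to 0.06 there, and its call also ended with a common median (adjusted p = 0.0511) and when any 1 pool was left out (adjusted p = 0.064 to 0.0972).

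**Figure D4:**
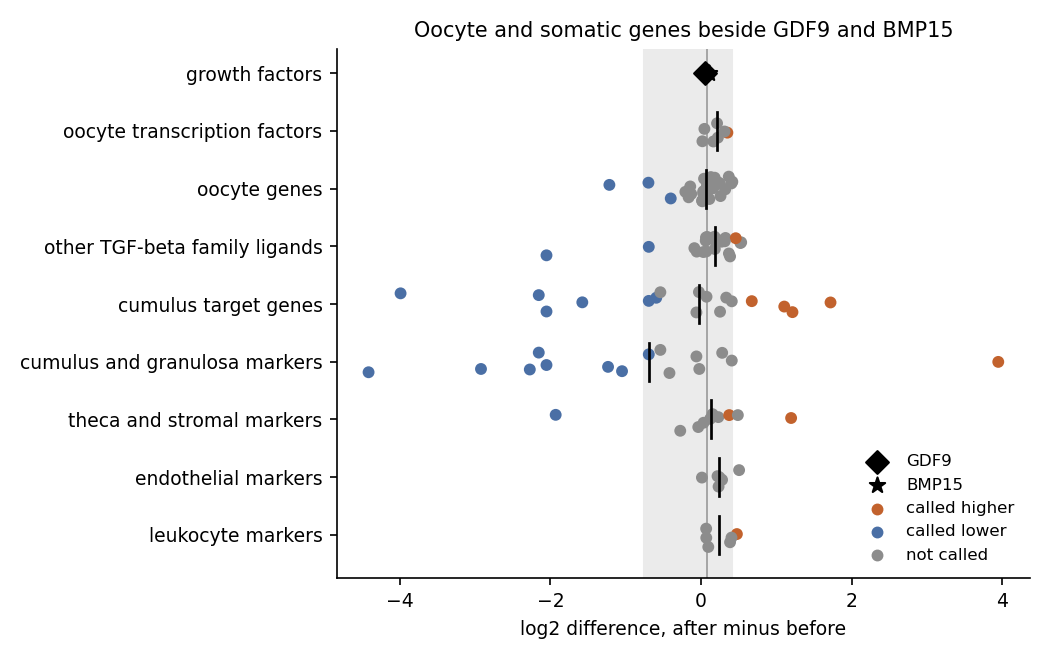
Log2 difference after minus before culture of GDF9 (diamond), BMP15 (star) and each measured gene of 8 lists (points, coloured by limma call), with the list median (black bar), the median of all probes (0.08, grey line) and their 5th to 95th percentile (-0.76 to 0.41, grey band). Oocyte genes have a median of 0.06 and cumulus and granulosa markers one of -0.69.

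The genes most like each growth factor over the 6 arrays were sought among the 2799 other genes of the brightest 25% of probes, by the root mean square difference between values centred on each gene's own mean. Nearest to GDF9 were INPP5F (0.0133), MGME1 (0.0137), KIF24 (0.0195), NLRP9 (0.0196) and HEATR1 (0.0220). Nearest to BMP15 were ATP6V0D1 (0.0187), TAB3 (0.0193), MNAT1 (0.0214), TDRD7 (0.0230) and NUTF2 (0.0258). Of these, NLRP9 is an oocyte NLRP gene and was at 11.56, 11.62 and 11.60 before culture and at 11.61, 11.65 and 11.68 after it. TDRD7, a tudor domain gene of germ cell granules, differed by 0.15. As the choice was made on these values, no test is given for the 10 genes. In all, 94 genes (3.36%) lay within 0.05 of GDF9 and 56 (2.0%) within 0.05 of BMP15. The median over the 2799 genes was 0.155 for GDF9 and 0.153 for BMP15. GDF9 and BMP15 differed from each other by 0.0519, which placed BMP15 at rank 111 for GDF9 and GDF9 at rank 70 for BMP15.

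Genes beside the growth factors in the RefSeq gene order of assembly Sscrofa11.1 were mostly not called on the deposited scale, and several calls depended on the scaling. The measured neighbours of GDF9 were SOWAHA (difference 0.30, limma adjusted p = 0.177), SHROOM1 (0.10, 0.539), LOC100524308 (-0.24, 0.282) and LEAP2 (0.03, 0.847). Ribosomal scaling called SOWAHA, SHROOM1 and LEAP2 higher. Those of BMP15 were DGKK (-0.35, 0.0503), SHROOM4 (0.42, 0.0735), GSPT2 (-0.54, 0.0972) and MAGED1. DGKK was called lower after cyclic loess (limma adjusted p = 0.0339) and with oocyte genes (0.0409) or the brightest 5% level (0.0279), and turned to 0.11 under ribosomal scaling. SHROOM4 was called higher with a common median (0.0404), after a second quantile normalization (0.0236), under ribosomal scaling (0.000236) and without pool 1 before culture (0.0233). GSPT2 was called lower with the replicate number as a block (0.0175). MAGED1, an adaptor protein gene of the MAGE family, was at 9.36, 9.15 and 9.53 before culture and at 7.82, 7.37 and 7.72 after it. It fell by 1.71 ± 0.15 (SE), or 3.27-fold (adjusted p = 0.000226), beside a BMP15 difference of 0.11.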

How the data were processed

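Total RNA of 6 pools of porcine oocytes (100 ng each, amplified in a pair of rounds) was hybridised to Affymetrix arrays of 1 colour, per the labels' protocols. The deposited log2 values were made by the authors with RMA, per the submitters' processing notes. Its version, options and probe filter were not given in the sources used here. The usual output of RMA and the size of the values point to a log2 scale. Detection calls were not analysed here.

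Probes were named from the platform annotation, with symbols updated through Entrez identifiers to the RefSeq table of Sscrofa11.1, used for names and gene order only. Of 12258 probes 10922 had 1 symbol, 268 several and 1068 none. The brightest probe stood for a gene. HAS2 was found under its older symbol SHAS2. Groups were compared by a two-sided moderated test (limma 3.58.1, run under R 4.3.3, Benjamini-Hochberg adjustment over all 12258 probes, threshold 0.05), and the BMP15 to GDF9 ratio with an exact permutation test. The fit was tested on simulated data drawn from its own model, with no array shifts or pairing. That test therefore does not bear on the scaling of the arrays or on pairing. Tables and figures used Python 3.11.15, pandas 2.3.3, numpy 2.4.6 and matplotlib 3.10.9.

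The members and lists were chosen with earlier results of these data known. Named genes were all measured receptors of GDF9 and BMP15, SMADs and convertases. From each other list up to 4 called genes with the smallest p were named (the 2 smallest p where fewer than 2 were called). The 2 measured neighbours on each side and the 5 most alike genes were also named. HAS2, PTGS2, PTX3, ID1, VCAN, FIGLA, NOBOX, LHX8, TAF4B and POU5F1 were named after their values were seen. Alternatives were a replicate block, other scalings, models and filters, and leaving out each pool. For lists held level, medians of gene-centred values were used; this, and the test with each probe's own spread, were chosen after the data were seen.

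Deviations from the group mean correlated at 0.283, 0.120 and 0.142 between arrays of the same number, against -0.168 to 0.0191 for other pairs. Arrays of the same number were thus the more alike, but weakly. Deviations from the mean of so few arrays are linked to each other, so this check cannot decide whether the numbers pair the pools. Any other matching of the numbers would have to use some of the pairs in the lower range. The labels name the pools as biological replicates and nothing more. P-values rest on the spread between these pools, which the moderated test draws toward that of all probes.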

Additional observations from a re-analysis of the deposited data

How the results depend on the processing

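On the deposited scale GDF9 and BMP15 failed limma's adjusted test under the replicate block (paired differences 0.06 and 0.11, adjusted p = 0.708 and 0.445), trend and robust estimation, the filter on the dimmest 25% and each pool left out (0.04 to 0.07 for GDF9, 0.09 to 0.13 for BMP15). Cyclic loess turned GDF9 to -0.0202. Ribosomal protein genes held level made both calls higher, at 0.51 and 0.57, and at 0.60 and 0.65 with uncentred medians. The BMP15 to GDF9 ratio turned to -0.00152 after a second quantile normalization and ranged from 0.0194 to 0.0847 with a pool left out.

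The probes called higher numbered 394. They were 621 with the replicate block, 915 with a common median, 596 after a second quantile normalization and 254 after cyclic loess. With the brightest 5% level they were 220 (262 uncentred), and with oocyte genes level 274 (185 uncentred). Ribosomal protein genes held level gave 9467 (9391 uncentred), own spread 50, and a pool left out 103 to 434. The 989 called lower became 536 with ribosomal protein genes level (416 uncentred), 147 with own spread and 531 to 1013 with a pool left out. Decreases were 71.5% of calls, but 49.3% with a common median, 59.2% after a second quantile normalization and 5.36% with ribosomal protein genes level. They were 80.6% after cyclic loess, 79.2% with oocyte genes level and 83.9% with the brightest 5% level.

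Some named genes changed sign, mostly those with small differences, and with them ZP4, which was called lower at -0.40. Ribosomal protein genes held level gave SMAD9 0.25, ZP4 0.0560, LOC100524308 0.22 and DGKK 0.11. LEAP2 was -0.0314 after a second quantile normalization, -0.0533 after cyclic loess, -0.0100 with oocyte genes level and -0.0222 with the brightest 5% level. Cyclic loess gave KIF24 -0.00423, NLRP9 -0.0293, HEATR1 -0.0125, LHX8 -0.0223 and TAF4B -0.0199. The brightest 5% level gave MGME1 -0.0117, KIF24 -0.0110, HEATR1 -0.0109, LHX8 -0.00768 and TAF4B -0.0340, and oocyte genes level gave TAF4B -0.0218. With a pool left out FURIN ranged from -0.0513 to 0.261, LEAP2 from -0.0186 to 0.0608 and TAF4B from -0.0149 to 0.0447. Among named genes the replicate block ended the call of ACVR2B and called SOX17 (adjusted p = 0.0369) and GSPT2 (0.0175), and it changed the call of no other named gene; in the lists it added ligands and receptors given in the report. With own spread 22 of 66 named genes lost their call and 2 gained one. The causes were not tested. Arrays of 3 a group limit all of these.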
